A study of Mus musculus with 6 samples.

Results

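The colony-stimulating factors and their receptors were examined by bulk RNA-seq in CD11b+ cells purified from TC1 tumors. The genes were chosen by symbol from the deposited gene count table: the ligands *Csf1*, *Csf2* and *Csf3*, the receptor subunits *Csf1r*, *Csf2ra*, *Csf2rb*, *Csf2rb2* and *Csf3r*, and the receptor *Kit*. All 9 were found among the 25701 genes of the table, and 8 of them passed the filter on low counts and were tested. MCT2loxP/loxP; Cre+ mice on a C57BL/6 background received either tamoxifen (MCT2 KO) or vehicle alone (MCT2 CO) from 8 weeks of age, the tamoxifen at 0.18 mg per g body weight in 5 daily doses. All mice were then given 100000 TC1 cells, a mouse lung epithelial tumor line, under the skin of the flank 2 days later, and the tumors were taken after 24 days. CD11b+ cells, which include monocytes, macrophages and neutrophils, were selected with a bead kit, and 3 MCT2 CO and 3 MCT2 KO libraries were sequenced. The mice were young males, deletion was systemic rather than limited to myeloid cells, and the methods describe no tamoxifen-treated mice without Cre, so that tamoxifen itself and loss of MCT2 cannot be told apart. In the sample records the tissue is given as lung and the cells as purified macrophages. No source used here states that each library came from 1 mouse, and the p values measure only the spread between libraries.

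Colony-stimulating factors are secreted glycoproteins that control the survival, growth and maturation of myeloid cells. M-CSF, encoded by *Csf1*, acts through the receptor tyrosine kinase CSF1R and maintains most tissue macrophages. GM-CSF (*Csf2*) binds a receptor made of a specific alpha chain (*Csf2ra*) and the shared beta chain (*Csf2rb*), which signals through JAK2 and STAT5. In mice a second beta chain gene, *Csf2rb2*, encodes the subunit that serves interleukin-3 only. G-CSF (*Csf3*) drives neutrophil production through *Csf3r*, and KIT is the stem cell factor receptor of mast cells and hematopoietic progenitors. Tumors are known to use M-CSF and GM-CSF to attract and shape their macrophages.

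*Csf2rb* and *Csf2rb2* are neighbors on chromosome 15 of GRCm38. They are alike enough that some reads could be assigned to the wrong gene or left uncounted, depending on the counting settings. By GENCODE M21, *Csf2rb* (ENSMUSG00000071713) runs from 78325752 to 78353847 on the plus strand and *Csf2rb2* (ENSMUSG00000071714) from 78282507 to 78305721 on the minus strand. The longest coding sequences, of 2688 and 2634 bases, were aligned over 2628 bases, of which 95.2% were identical, and the longest stretch without a difference was 242 bases. Of the runs of 50 bases in the transcripts of *Csf2rb*, 12.3% also occurred in *Csf2rb2*, and 18.4% of those of *Csf2rb2* occurred in *Csf2rb*. The 90 aligned coding bases that differ most are printed 5′ to 3′ to show where the genes can be told apart, with the 16 differing bases in capitals. They span coding positions 308 to 397 of *Csf2rb* and 311 to 400 of *Csf2rb2*.
Csf2rb: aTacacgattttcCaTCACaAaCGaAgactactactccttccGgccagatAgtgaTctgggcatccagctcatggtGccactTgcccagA
Csf2rb2: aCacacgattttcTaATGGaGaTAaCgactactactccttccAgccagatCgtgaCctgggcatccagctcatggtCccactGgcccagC
A part of the longest identical stretch, coding positions 2083 to 2172 in both genes, holds 0 differences. It is shown because a read from it cannot be placed in one gene rather than the other.
Csf2rb and Csf2rb2: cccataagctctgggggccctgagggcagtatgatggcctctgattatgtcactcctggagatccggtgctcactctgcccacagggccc

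The other members lie apart. By the same annotation of GRCm38, *Csf1* (ENSMUSG00000014599) lies on chromosome 3 from 107741048 to 107760469 and *Csf2ra* (ENSMUSG00000059326) on chromosome 19 from 61223957 to 61228429. *Csf2* (ENSMUSG00000018916) lies on chromosome 11 from 54247271 to 54249667, and *Csf3* (ENSMUSG00000038067) on the same chromosome from 98701263 to 98703629. *Csf3r* (ENSMUSG00000028859) lies on chromosome 4 from 126024550 to 126044440 and *Kit* (ENSMUSG00000005672) on chromosome 5 from 75574916 to 75656722.

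Promoters of *Csf1* and *Csf2ra* are printed because these genes varied in opposite directions across the libraries, as described below. The pair was picked after the values were seen. By Pearson's r, *Csf3r*, *Kit* and *Csf1r* ran more strongly opposite to *Csf1* (-0.89, -0.87 and -0.84) than *Csf2ra* did (-0.81). Each sequence holds the 150 bases before the RefSeq start on GRCm38.p6, 5′ to 3′ along the gene, at chr3:107760470-107760619 and chr19:61228419-61228568, both on the minus strand. Capitals mark matches on either strand to GAGGAA (the PU.1 core), TTNCNNAA (C/EBP), TGANTCA (AP-1) or TATAAA, which may overlap one another.
Csf1: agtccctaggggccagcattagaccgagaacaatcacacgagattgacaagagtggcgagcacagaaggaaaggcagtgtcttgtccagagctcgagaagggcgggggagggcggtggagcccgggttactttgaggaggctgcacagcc
Csf2ra: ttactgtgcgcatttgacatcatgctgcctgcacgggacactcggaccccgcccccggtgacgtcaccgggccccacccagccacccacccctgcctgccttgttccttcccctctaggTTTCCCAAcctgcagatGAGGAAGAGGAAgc
The *Csf2ra* stretch held GAGGAA 2 times in a row next to the RefSeq start and 1 C/EBP-type match, whereas the *Csf1* stretch held 0 matches, and the counts were the same over 250 bases. By GENCODE M21 *Csf2ra* begins further upstream, at 61228429, so the GAGGAA nearest the RefSeq start lies inside that span. In the 250 bases before all 32851 RefSeq starts, GAGGAA occurred in 23.3%, TTNCNNAA in 36.8%, TGANTCA in 6.75% and TATAAA in 12.4%. In the 150 bases before their own starts, *Csf3r* held GAGGAA 1 time and no other match, and *Kit* held 0 matches. The promoter of *Csf1r* is not reported here. Over 250 bases *Csf3r* and *Kit* each held GAGGAA 1 time. These are matches of letters and not measured binding.

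The libraries held 24863611 to 31713704 counts. *Slc16a7*, which encodes MCT2, averaged 12.8 ± 2.84 CPM (counts scaled to a common library size by the TMM method) in MCT2 CO against 6.18 ± 1.78 in MCT2 KO (SD, n = 3), without overlap. *Slc16a7* was lower in MCT2 KO but not absent, with a difference of -1.05 on the log2 scale (standard error 0.24), which edgeR placed at an adjusted p of 0.370 and DESeq2 at 0.00908. On the first principal component MCT2 CO replicate 3 stood apart, at -22.7 against -3.54 and -3.13 for the other MCT2 CO libraries. On the second component MCT2 KO replicate 2 stood apart, at -22.5 against 5.53 and 9.26 for the other MCT2 KO libraries. The macrophage markers, led by *Apoe*, were all well above the filter (15 of 15 tested), whereas the alveolar marker *Sftpc* stayed at or below 0.0803 CPM. *Itgam*, the gene of CD11b, had 1 count in all, and 99.1% of its exon bases lie inside the span of *Gm49368*.

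The *Csf1r* transcript was the most abundant of the set by a wide margin. To compare genes, CPM were divided by the kilobases of exon of each gene, and on this scale *Csf1r* had 162 ± 9.48 (SD, n = 3) in MCT2 CO against 182 ± 54.2 (SD, n = 3) in MCT2 KO. It ranked 173 among 13467 tested genes with an exon length, and its lowest library, at 146, lay above the highest library of every other member. *Csf1* followed with a mean of 44.5 CPM per kb over the 6 libraries, then *Csf2ra* with 35.4, *Csf2rb* with 26.6, *Csf3r* with 24.8 and *Csf2rb2* with 23.7. Neighbors among these 5 genes overlapped across libraries and did not differ beyond their spread. A clear step separated them from *Csf2* at 1.76, *Kit* at 0.956 and *Csf3* at 0.272 CPM per kb. *Csf2* and *Kit* overlapped, and the highest *Csf3* library, at 0.413, lay below the lowest *Kit* library, at 0.658. The receptor subunits of all 3 factors were thus measured at high or middling levels, whereas of the ligands *Csf1* alone was abundant. The 9 genes together took 0.156% to 0.220% of all counts.

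**Figure D1:**
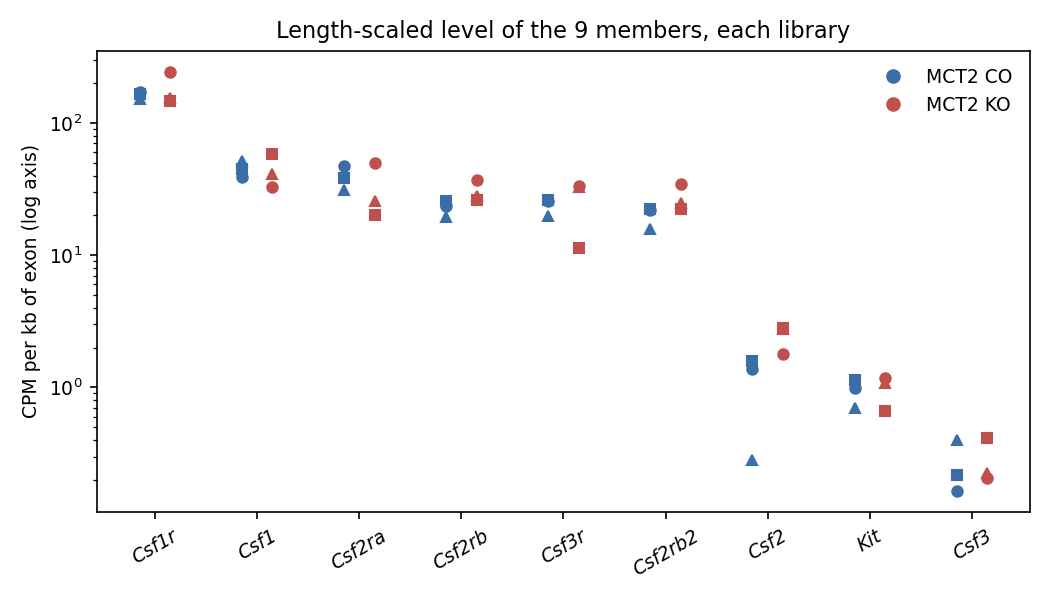
Level of each member in CPM per kilobase of exon (log axis) in each library, genes ordered by their mean, blue for MCT2 CO and red for MCT2 KO, with circles, squares and triangles for replicates 1, 2 and 3. *Csf1r* lies above all others at 146 to 244, 5 genes share a band between 11.4 and 58.0, and *Csf2*, *Kit* and *Csf3* lie at 2.80 or less.

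The effect of MCT2 reduction on these genes was asked by comparing MCT2 KO with MCT2 CO. By edgeR's quasi-likelihood test, 0 of the 8 tested members passed the thresholds of 0.05 for the adjusted p and 0.58 for the size of the log2 fold change, and the same held for 0% of the 13485 genes tested. DESeq2, run on every gene with a count, called 0 of the 9 members and 0.448% of its 18508 genes. With limma-voom 0 of the 8 were called, as were 0 of all 13485 genes tested. At an unadjusted p under 0.05, 3 of the 8 stood out, *Csf2*, *Csf2rb* and *Csf2rb2*, all with positive log2 fold changes, where 9.37% of all genes tested did. The groups did not overlap for *Csf2* and *Csf2rb*, that is for 2 of the 8, against 15.8% of all genes tested. Both were higher in MCT2 KO, as were 7.07% of all genes tested, while 0 of the 8 were lower without overlap, against 8.77%. For both, the exact two-sided permutation test gave p = 0.1, the smallest that 3 libraries against 3 allow. *Csf2* had 6 counts in MCT2 CO replicate 3, under the filter's minimum count. It would not have passed the filter on the MCT2 CO libraries alone. Its p and its lack of overlap therefore cannot count as support in these shares. Apart from it, *Csf2rb* and *Csf2rb2* had an unadjusted p under 0.05, and only *Csf2rb* did not overlap. The median log2 fold change was 0.13 over the 8 members and 0.00 over all genes tested. In libraries of mixed cells, fewer cells of a type and less RNA per cell cannot be told apart.

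**Figure D2:**
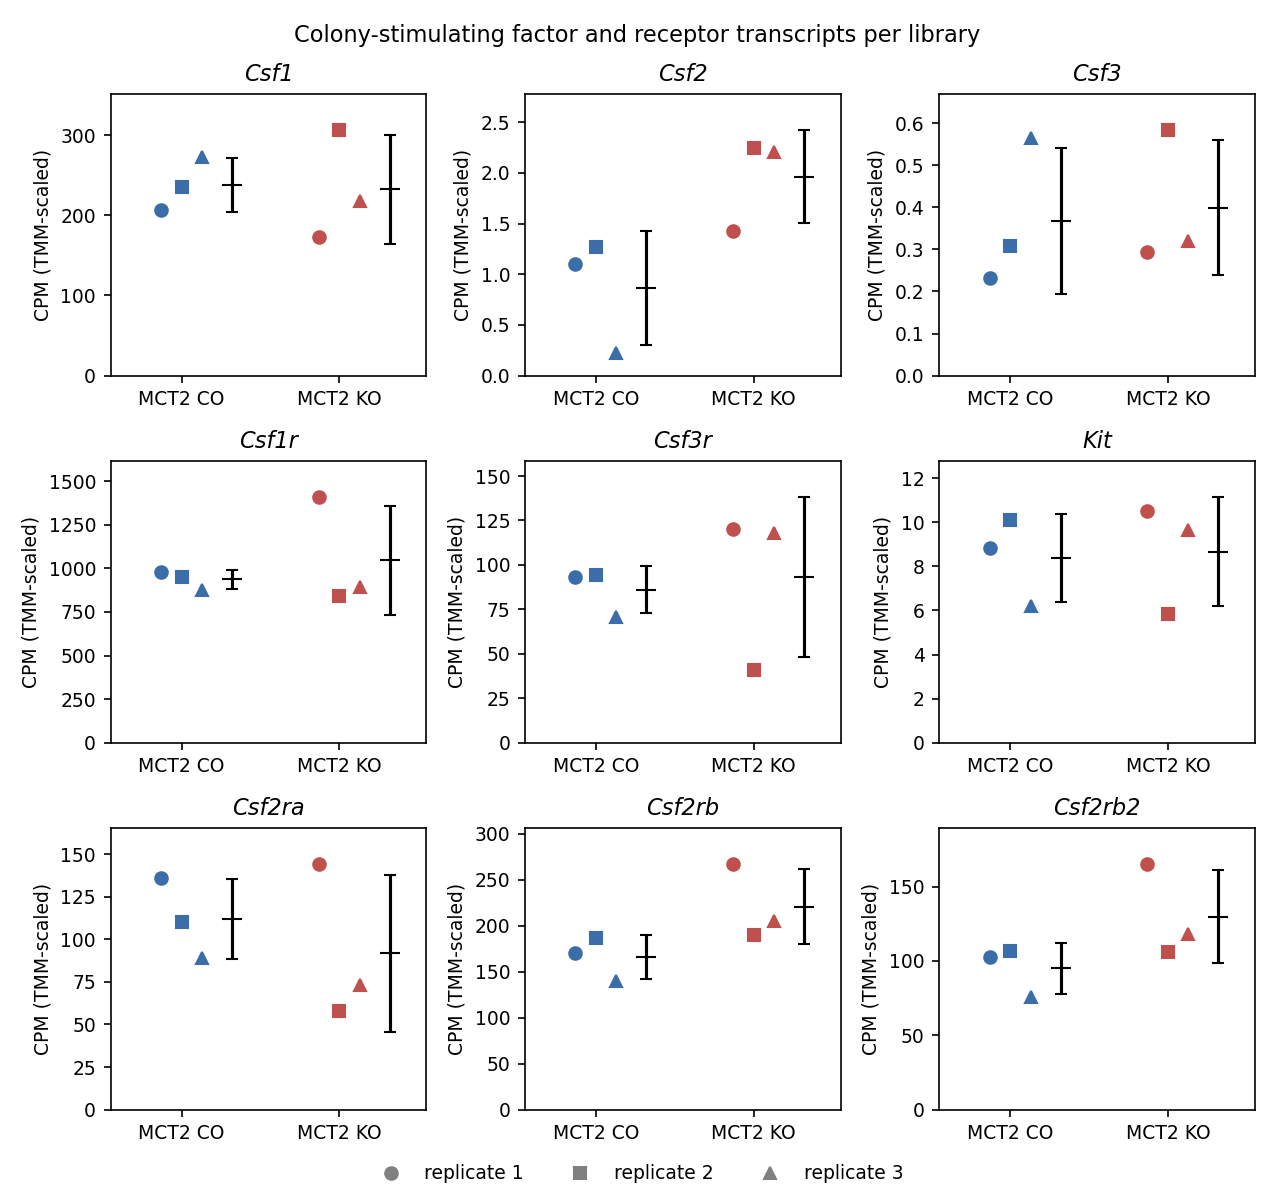
TMM-scaled CPM of each member in the 3 MCT2 CO (blue) and 3 MCT2 KO (red) libraries, one panel per gene with its own axis from 0, circles, squares and triangles for replicates 1, 2 and 3, and the mean with its SD to the right. The groups are apart for *Csf2* and *Csf2rb* alone, and MCT2 KO replicate 2 is the highest for *Csf1* (306) and the lowest for *Csf3r* (41.1), *Csf2ra* (58.0) and *Kit* (5.86).

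*Csf1*, the gene of M-CSF, had 206, 235 and 273 CPM in MCT2 CO replicates 1 to 3, against 173, 306 and 218 CPM in replicates 1 to 3 of MCT2 KO. Both the lowest and the highest value belonged to MCT2 KO, whose libraries enclosed those of MCT2 CO. The means were 238 ± 33.6 and 232 ± 67.7 CPM (SD, n = 3), which gave a log2 difference of -0.03 with a 95% interval of -0.50 to 0.43 (edgeR adjusted p = 0.968). Its receptor gene, *Csf1r* (ENSMUSG00000024621), lies on chromosome 18 from 61100598 to 61132149. It is the only member whose span overlaps another listed gene, *Hmgxb3* on the opposite strand, which covers 15.1% of its exon bases, and where the counting ignored strand these reads could not be told apart. *Csf1r* had 981, 953 and 875 CPM in MCT2 CO replicates 1 to 3, against 1408, 843 and 893 CPM in replicates 1 to 3 of MCT2 KO. MCT2 KO replicate 1 stood out above all other libraries, while MCT2 KO replicate 2 lay below the MCT2 CO range and MCT2 KO replicate 3 within it. The log2 fold change was 0.16 with a 95% interval of -0.28 to 0.61 (edgeR adjusted p = 0.817), and without MCT2 KO replicate 1 it was -0.10. The summed macrophage markers were also highest in MCT2 KO replicate 1, at 16703 CPM against 8072 to 12241 in the other libraries, and their part in the *Csf1r* value was not tested.

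Ligand and receptor ran opposite to each other. The library with the most *Csf1* (MCT2 KO replicate 2) had the least *Csf1r*, and the one with the least *Csf1* (MCT2 KO replicate 1) had the most *Csf1r*. The count of *Csf1* per count of *Csf1r* was 0.123 in MCT2 KO replicate 1 and 0.363 in MCT2 KO replicate 2, and between 0.210 and 0.312 in the other 4 libraries. The group means of this ratio were 0.256 ± 0.0516 in MCT2 CO against 0.243 ± 0.120 in MCT2 KO (SD, n = 3), so that it differed more within MCT2 KO than between the groups. The fibroblast markers, led by *Col3a1*, summed to 1861 to 3079 CPM in MCT2 CO against 1566 to 1654 in MCT2 KO. The monocyte markers, led by *Fn1*, summed to 1727 to 2529 and 1675 to 2132 CPM. MCT2 KO replicate 2, the highest in *Csf1*, lay at 1639 CPM for fibroblast and 2132 for monocyte markers. *Col3a1* alone made up 805 CPM of that fibroblast sum, and the list was mixed. Among the MCT2 KO libraries, replicate 2 was the highest in *Col1a2* and *Pdpn* (438 and 245 CPM) and the lowest in *Col3a1* and *Dcn* (805 and 14.7 CPM). *Col1a2*, *Pdpn* and *Dcn* were named after their values were seen, and the part of these cells was not tested. A second ligand of CSF1R, *Il34*, was scarce at 3.77 to 5.26 CPM in all libraries (log2 fold change 0.14, edgeR adjusted p = 0.846).

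Of the GM-CSF genes, the ligand and the beta chain were higher in every MCT2 KO library than in any MCT2 CO library, although neither difference passed the adjusted threshold. *Csf2* was counted 33, 33 and 6 times in MCT2 CO replicates 1 to 3, against 34, 73 and 55 times in replicates 1 to 3 of MCT2 KO. In CPM this was 1.10, 1.27 and 0.226 against 1.43, 2.24 and 2.21. MCT2 CO replicate 3 lay far below the rest, and MCT2 KO replicate 1 lay only a little above MCT2 CO replicate 2. The exact Poisson 95% intervals of these neighbors, which cover counting error only, were 0.987 to 1.99 and 0.874 to 1.78 CPM, so they were not told apart at this depth. The log2 fold change was 1.18 (standard error 0.50, 95% interval 0.02 to 2.33), with an edgeR p of 0.0471, or 0.533 after adjustment over all genes by the Benjamini–Hochberg method. Without MCT2 CO replicate 3 it was 0.73 (adjusted p = 0.835), and without that library and MCT2 KO replicate 2 it was 0.62 (adjusted p = 0.574, both by edgeR).

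GM-CSF is made mainly by activated lymphocytes and stromal cells, and markers of such cells were measured beside it. The T-cell markers, led by *Cd4*, summed to 48.1 to 72.1 CPM in MCT2 CO against 17.9 to 92.6 in MCT2 KO, and the lowest sum belonged to MCT2 KO replicate 2, the library with the most *Csf2*. The markers of NK and innate lymphoid cells, led by *Klra4*, summed to 123 to 140 CPM in MCT2 CO against 124 to 180 in MCT2 KO. *Klra4* alone made up 61.8 to 65.4 CPM of the sums in MCT2 CO and 50.9 to 101 in MCT2 KO. Of these 11 genes, 4 were higher and 7 lower in MCT2 KO. Without overlap, 4 were lower and 1 was higher, against 8.77% and 7.07% of all genes tested. The part of these cells in the *Csf2* value was not tested.

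*Csf2rb*, the shared beta chain, had 171, 187 and 140 CPM in MCT2 CO replicates 1 to 3, against 267, 190 and 205 CPM in replicates 1 to 3 of MCT2 KO. The gap between the groups was narrow, from 187 to 190 CPM, with MCT2 KO replicate 1 well above the others. The means were 166 ± 23.7 and 221 ± 40.6 CPM (SD, n = 3), which gave a log2 difference of 0.41 (standard error 0.15, 95% interval 0.05 to 0.77). Its unadjusted p of 0.0288 was the smallest among the members and ranked 780 among all genes tested, and its adjusted p was 0.497 (edgeR). *Csf2rb2*, the interleukin-3 beta chain, had 103, 107 and 75.5 CPM in MCT2 CO replicates 1 to 3, against 165, 106 and 118 CPM in replicates 1 to 3 of MCT2 KO. It repeated the pattern of *Csf2rb*, except that MCT2 KO replicate 2 lay just below MCT2 CO replicate 2, so that the groups touched. Its log2 fold change was 0.45 (standard error 0.19, 95% interval 0.01 to 0.88, edgeR adjusted p = 0.529).

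Because of the shared sequence printed above, these genes may not be independent measurements. How many reads of one were counted for the other was not measured. Counts of *Csf2rb* per count of *Csf2rb2* stayed between 1.62 and 1.86 in all libraries, at 1.76 ± 0.0999 in MCT2 CO against 1.72 ± 0.0865 in MCT2 KO (SD, n = 3). With their counts added into 1 gene, the log2 fold change was 0.42 (standard error 0.17, edgeR adjusted p = 0.509). Across the alternatives tried, the log2 fold change of *Csf2rb* ranged from 0.26 to 0.51 and that of *Csf2rb2* from 0.25 to 0.57, the lowest in each case without MCT2 KO replicate 1.

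*Csf2ra*, the alpha chain that gives the receptor its specificity for GM-CSF, did not follow the beta chains. It had 136, 110 and 89.3 CPM in MCT2 CO replicates 1 to 3, against 144, 58.0 and 73.1 CPM in replicates 1 to 3 of MCT2 KO. MCT2 KO replicate 1 was the highest of all libraries and the other MCT2 KO libraries were the lowest. The means were 112 ± 23.2 and 91.6 ± 45.7 CPM (SD, n = 3), and the log2 fold change was -0.29 with a 95% interval of -1.02 to 0.44 (edgeR adjusted p = 0.802). It depended on single libraries, at -0.76 without MCT2 KO replicate 1 (adjusted p = 0.323) and -0.04 without MCT2 KO replicate 2 (adjusted p = 0.968, both by edgeR).

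Within each library, however, the alpha chain was lower relative to the beta chain in MCT2 KO. The count of *Csf2ra* per count of *Csf2rb* was 0.792, 0.588 and 0.636 in MCT2 CO replicates 1 to 3, against 0.538, 0.305 and 0.356 in replicates 1 to 3 of MCT2 KO. The groups did not overlap, with means of 0.672 ± 0.107 and 0.400 ± 0.122 (SD, n = 3). This ratio needs no scaling between libraries, but it was picked after the values were seen, as 1 of 4 ratios computed, and carries no test here.

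**Figure D3:**
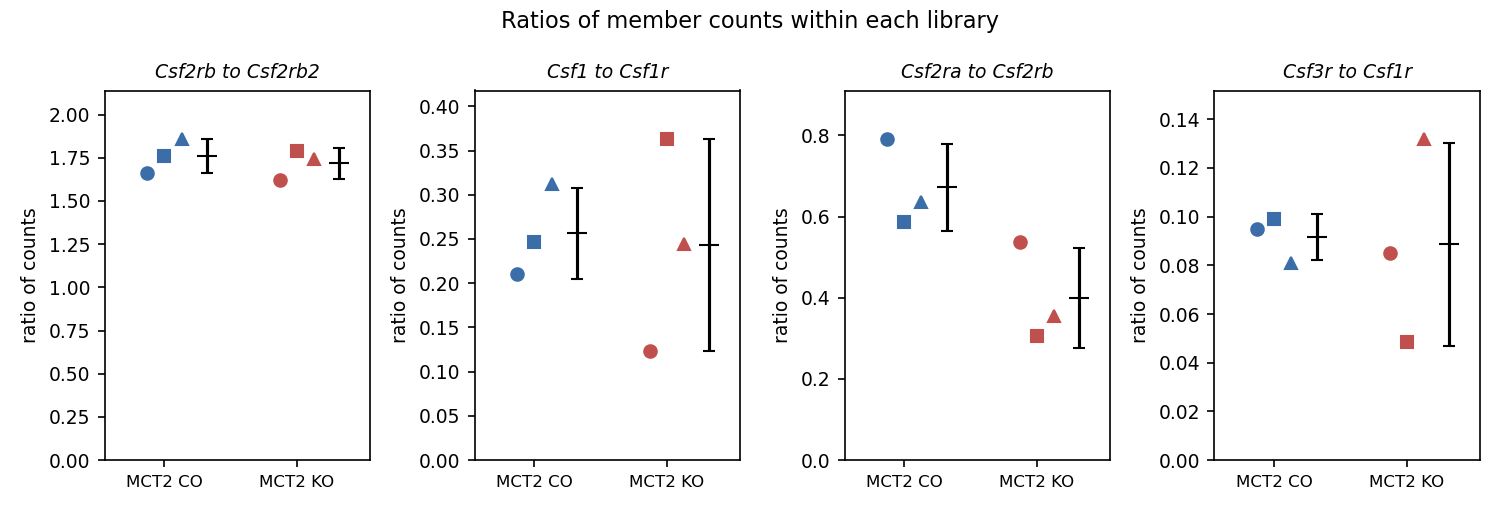
Ratio of raw counts between pairs of members within each library, MCT2 CO in blue and MCT2 KO in red, circles, squares and triangles for replicates 1, 2 and 3, mean and SD to the right, axes from 0. *Csf2ra* to *Csf2rb* is the one ratio whose groups lie apart, and *Csf2rb* to *Csf2rb2* stays between 1.62 and 1.86.

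*Csf3*, the gene of G-CSF, was at the edge of detection. It was counted 7, 8 and 15 times in MCT2 CO replicates 1 to 3, against 7, 19 and 8 times in replicates 1 to 3 of MCT2 KO, and did not pass the filter. The totals of 30 counts in MCT2 CO and 34 in MCT2 KO were close, and the highest library of each group, at 0.564 and 0.583 CPM, stood above its 2 companions. DESeq2 without the filter gave it a log2 fold change of 0.15 (adjusted p = 0.986). The receptor gene *Csf3r* had 93.0, 94.3 and 70.9 CPM in MCT2 CO replicates 1 to 3, against 120, 41.1 and 118 CPM in replicates 1 to 3 of MCT2 KO. MCT2 KO replicates 1 and 3 were above all MCT2 CO libraries, and MCT2 KO replicate 2 was below all of them. The log2 fold change was 0.11 with a 95% interval of -0.71 to 0.92 (edgeR adjusted p = 0.941), and without MCT2 KO replicate 2 it was 0.47 (adjusted p = 0.369).

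Neutrophils carry *Csf3r*, as do monocytes at lower levels. The neutrophil markers, led by *Mmp9*, summed to 20.4 to 62.9 CPM in MCT2 CO against 39.6 to 99.0 in MCT2 KO, and the neutrophil surface marker *Ly6g* stayed at or below 0.123 CPM. *Mmp9* alone made up 7.65 to 43.6 CPM of the sums in MCT2 CO and 14.7 to 47.3 in MCT2 KO, with overlapping groups. Of the 9 neutrophil genes tested, 8 were higher in MCT2 KO, and 6 were higher without overlap between the groups, against 7.07% of all genes tested. DESeq2 on all genes called 5 of the 16 listed neutrophil genes, against 0.448% of all genes in that fit. *Ngp*, a granule protein gene of neutrophil precursors, *Retnlg*, *Ltf* and *Ly6g* were named after their values were seen. *Ngp* had 15.3, 3.62 and 1.16 CPM in MCT2 KO replicates 1 to 3 and at most 0.376 in MCT2 CO. *Ngp* and *Retnlg*, both among the 6 without overlap and the 5 called by DESeq2, had only 4 to 10 and 8 to 13 counts in the MCT2 CO libraries. *Ltf*, also among the 6, had 7 counts in MCT2 CO replicate 1, under the minimum count of 10. These genes would not have passed the filter on the MCT2 CO libraries alone, so they cannot count as support in the share without overlap. The DESeq2 fit used no such filter, and its calls of *Ngp* and *Retnlg* rest on few MCT2 CO counts. MCT2 KO replicate 1 was the highest library both in the neutrophil sum, at 99.0 CPM, and in *Csf3r*. MCT2 KO replicate 2, the lowest in *Csf3r*, had a sum of 82.1 CPM, and MCT2 CO replicate 2, with 94.3 CPM of *Csf3r*, had the lowest sum. Of these sums *Mmp9* made up 47.3 CPM in MCT2 KO replicate 2 and 7.65 in MCT2 CO replicate 2. The part of neutrophils in the *Csf3r* value was not tested.

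*Kit* had 8.84, 10.1 and 6.21 CPM in MCT2 CO replicates 1 to 3, against 10.5, 5.86 and 9.64 CPM in replicates 1 to 3 of MCT2 KO. The groups overlapped almost entirely, with 1 low library in each. The means were 8.37 ± 1.98 and 8.66 ± 2.46 CPM (SD, n = 3), which gave a log2 difference of 0.04 with a 95% interval of -0.55 to 0.64 (edgeR adjusted p = 0.967). Mast cells are the mature cells best known for KIT, and most of their defining markers were close to 0: *Fcer1a* and *Ms4a2* stayed at or below 0.133 CPM in every library. *Mcpt4* and *Cpa3* peaked at 2.03 and 1.20 CPM in MCT2 CO replicate 3, where *Kit* was low. In MCT2 KO they stayed at or below 0.0803 and 0.126 CPM, under every MCT2 CO library, and neither passed the filter. Of the 12 mast-cell and basophil markers only 3 passed the filter, led by *Gata2*. Among the progenitor markers, led by *Cd34*, 6 of 8 passed it, with sums of 495 to 547 CPM in MCT2 CO against 446 to 578 in MCT2 KO. The KIT ligand *Kitl* had 46.8 to 62.2 CPM in MCT2 CO against 41.3 to 54.2 in MCT2 KO (log2 fold change -0.15, edgeR adjusted p = 0.774).

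**Figure D4:**
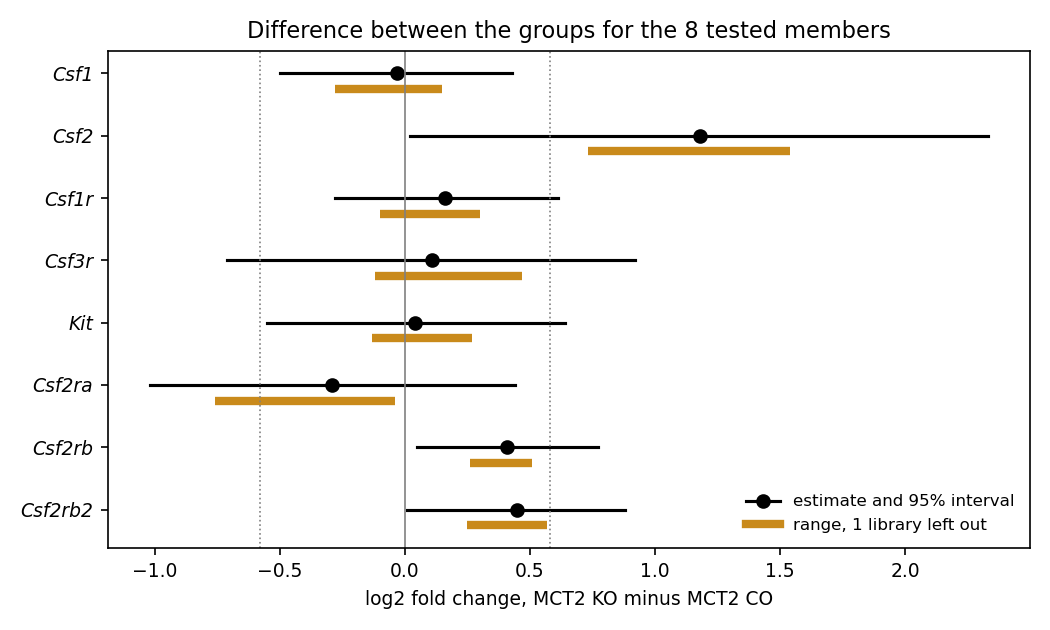
Log2 fold change of MCT2 KO over MCT2 CO for the 8 tested members from edgeR's quasi-likelihood fit (point) with its 95% interval (line), and the range of the estimate with each library left out in turn (bar), dotted lines at the thresholds of -0.58 and 0.58. The intervals of *Csf2*, *Csf2rb* and *Csf2rb2* lie just above 0 before adjustment over all genes, and those of the other 5 genes cross it.

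The wider pathway was read from 4 lists of 64 genes in all: other ligands and receptors, transducers of CSF1R and KIT, the JAK-STAT signal of the GM-CSF and G-CSF receptors, and genes of receptor shedding and turnover. Of these, 57 genes were tested and 0 passed both thresholds by edgeR's quasi-likelihood test or by DESeq2. An unadjusted p under 0.05 was found for 4 genes, 7.02% against 9.37% of all genes tested. In 3 of the 57 the groups did not overlap, against 15.8% of all genes tested, and 34 were higher and 23 lower in MCT2 KO. *Il3*, a ligand of the other beta chain, had 0 counts in all 6 libraries, which allows up to 0.0921 to 0.126 CPM per library at the limit of 3 counts. *Flt3l* is poorly measured in this table, since 97.2% of its exon bases lie inside the span of another listed gene.

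Among the 8 tested genes of other ligands and receptors, 3 were higher and 5 lower in MCT2 KO, with a median log2 fold change of -0.10. *Pdgfrb*, a stromal receptor kinase related to CSF1R, had 42.5 ± 16.0 CPM in MCT2 CO against 29.2 ± 0.561 in MCT2 KO (SD, n = 3), where MCT2 CO replicate 3 alone reached 60.4. Its log2 fold change was -0.54, and the groups overlapped. *Il3ra*, the alpha chain that pairs with the beta chains for interleukin-3, had 20.1 ± 2.00 and 17.3 ± 3.63 CPM (log2 fold change -0.22). *Flt3*, the receptor kinase of dendritic-cell precursors, had 6.23 ± 1.63 and 4.83 ± 2.08 CPM (log2 fold change -0.37). *Tyrobp*, the adaptor DAP12 of macrophage receptors, had 277 ± 28.5 and 326 ± 87.0 CPM (log2 fold change 0.24). None of the 4 passed the threshold, with adjusted p values of 0.533 to 0.747 (edgeR).

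Of the 23 transducers of CSF1R and KIT, 16 were higher and 7 lower in MCT2 KO, with a median log2 fold change of 0.11, and the groups overlapped in all 23. The smallest p values belonged to *Mapk3*, the kinase ERK1, with 161 ± 5.39 CPM in MCT2 CO against 187 ± 18.5 in MCT2 KO, and to *Pik3cg*, a leukocyte PI3-kinase subunit, with 63.5 ± 8.76 and 84.7 ± 24.7 CPM (SD, n = 3). *Dok2*, an inhibitory adaptor, and *Fgr*, a Src-family kinase of myeloid cells, followed with log2 fold changes of 0.50 and 0.40. The adjusted p values of these 4 ranged from 0.539 to 0.630 (edgeR). As with *Csf1r* and *Csf2rb*, MCT2 KO replicate 1 was the highest library for *Pik3cg*, *Fgr* and *Mapk3*.

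The JAK-STAT list split evenly, with 9 of its 19 tested genes higher and 10 lower in MCT2 KO and a median log2 fold change of -0.01. *Stat5a* and *Stat5b*, the main transcription factors downstream of GM-CSF, had log2 fold changes of 0.00 and 0.02, and *Jak2* of 0.04. *Cish*, a STAT5 target that restrains cytokine signals, had 25.4 ± 5.47 CPM in MCT2 CO against 20.7 ± 4.19 in MCT2 KO (log2 fold change -0.30). These 4 genes were named for their role in the GM-CSF signal after the values were seen. The smallest p was that of *Socs1*, another feedback inhibitor of JAK kinases. *Socs1* had 7.64, 6.23 and 6.81 CPM in MCT2 CO replicates 1 to 3, against 4.49, 2.27 and 4.22 CPM in replicates 1 to 3 of MCT2 KO, so that every MCT2 KO library lay below every MCT2 CO library. Its log2 fold change was -0.92 (edgeR adjusted p = 0.426), ranked 223 by p among all genes tested. *Bcl2l1*, a survival gene, did not overlap between the groups either, at 112 ± 8.35 and 124 ± 6.33 CPM (log2 fold change 0.15). *Myc* and *Irf4* had log2 fold changes of -0.38 and -0.64 with overlapping groups, and the adjusted p values of these 3 genes ranged from 0.502 to 0.631 (edgeR).

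Of the 7 tested genes of shedding and turnover, 6 had a log2 fold change above 0 and 1 below, with a median of 0.06. *Ncstn*, a subunit of the gamma-secretase that cleaves receptor stubs, had 203 ± 12.5 CPM in MCT2 CO against 243 ± 5.16 in MCT2 KO (SD, n = 3), without overlap (log2 fold change 0.26, edgeR adjusted p = 0.436). *Adam17*, the protease that sheds CSF1R, had 240 ± 36.9 and 269 ± 37.8 CPM and a log2 fold change of 0.16. *Psen2* and *Adam10* had log2 fold changes of 0.25 and 0.06. The adjusted p values of these last 3 ranged from 0.758 to 0.854 (edgeR).

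The tested members were also compared with one another across the 6 libraries on the log2 CPM scale. These correlations are descriptions over 6 points that share library depth and cell makeup, and they include the difference between the groups. *Csf2rb* and *Csf2rb2* were the most alike (Pearson's r = 0.99, Spearman's rho = 0.94), and they share the sequence described above. *Csf3r* and *Kit* came next (r = 0.90, rho = 0.94). *Csf1* had negative coefficients with 6 of the other 7 tested members, strongest with *Csf3r* (r = -0.89, rho = -0.83), while with *Csf2* they differed in sign (r = -0.19, rho = 0.14). Against *Csf1r* Pearson's r was -0.84 (rho = -0.94) and against *Csf2ra* -0.81 (rho = -0.83). *Csf2ra* was closer to *Csf1r* (r = 0.75, rho = 0.94) than to its partner *Csf2rb* (r = 0.26, rho = 0.09).

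Among tested genes of at least 5 CPM, those most like each member over the 6 libraries were found by Pearson's r of log2 CPM. They were *Palld* and *Mkx* for *Csf1*, *C5ar2* and *Gemin7* for *Csf1r*, and *Rassf4* and *Nlrp1b* for *Csf3r*. For the GM-CSF genes they were *Cnot8* and *Vat1* for *Csf2*, *Sgk3* and *Dnah17* for *Csf2ra*, *Dnajc14* and *Snx30* for *Csf2rb*, and *Gak* and *Alg1* for *Csf2rb2*. For *Kit* they were *Arhgef2* and *Tnip1*. All these r values lay between 0.989 and 0.998, and were picked as the highest of all genes searched, over 6 points. *Rassf4* shared the low value of *Csf3r* in MCT2 KO replicate 2, with 93.6 CPM there against 128 to 185 in the other libraries, and *Palld* shared the high value of *Csf1*, with 168 against 115 to 154.

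The remaining marker lists, which like those above held 0 genes past both thresholds by the edgeR test, were summed in the same way. The B-cell markers, led by *Ighm*, summed to 81.1 to 97.8 CPM in MCT2 CO against 24.3 to 110 in MCT2 KO, and 8 of 8 tested had a log2 fold change below 0. The dendritic-cell markers, led by *Fscn1*, summed to 131 to 164 and 113 to 155 CPM, with 8 of 10 below 0. The eosinophil markers, led by *Ear2*, stayed at or below 2.39 CPM in sum. The endothelial markers, led by *Pecam1*, summed to 104 to 110 and 96.3 to 151 CPM, and the epithelial markers, led by *Cdh1*, to 14.5 to 21.3 and 19.2 to 34.0 CPM, with *Krt5* at 0 counts. The genes of the dissociation response, led by *Egr1*, summed to 17670 to 21047 CPM in MCT2 CO against 14822 to 18286 in MCT2 KO, and 17 of 20 had a log2 fold change below 0. An unadjusted p under 0.05 was found for 4 of 8 B-cell, 1 of 10 dendritic-cell and 1 of 3 eosinophil genes tested. It was found for 0 of 10 endothelial, 0 of 2 epithelial and 9 of 20 dissociation genes, against 9.37% of all genes tested. DESeq2 on all genes called 3 of the 10 B-cell and 2 of the 20 dissociation genes listed, against 0.448% of all genes in that fit. Of the lists given earlier, besides the neutrophil genes, it called 3 of 10 fibroblast genes, 1 of 11 of NK and innate lymphoid cells and 1 of 12 of mast cells and basophils. All of these were lower in MCT2 KO, as were the B-cell and dissociation genes called, whereas the neutrophil genes called were higher. The part of the marker lists in the values of the colony-stimulating factor genes was not tested.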

How the data were processed

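Poly-A RNA of CD11b+ cells was sequenced from 3 MCT2 CO and 3 MCT2 KO libraries. Per the labels and the methods, the authors checked reads with FastQC 0.12.0 and MultiQC 1.28 and used STAR 2.7.11b for alignment to GRCm38. The deposited values are raw gene counts from featureCounts 2.1.1, not normalized or pooled. The annotation and the strand and multi-mapping settings are not given in the sources used here. The table's gene lengths are whole spans, and only 2.2% of its start positions match GENCODE M21, so positions and exon lengths were taken from GENCODE M21 by identifier.

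Counts were analysed with R 4.3.3 and edgeR 4.0.16: filterByExpr (minimum count 10, total 15) kept 13485 genes, which were TMM-normalized and compared by the quasi-likelihood test without covariates, with Benjamini–Hochberg adjustment over all of them. A gene was called where the adjusted p was 0.05 or less and the log2 fold change 0.58 or more in size. Adjusted p values in the text are those of this edgeR test unless another tool is named. DESeq2 1.42.0, limma 3.58.1 (voom), other normalizations and filters, a replicate block and leaving out libraries were alternatives. The test was checked on simulated counts. Log2 CPM used a prior count of 2.

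The members, the 4 pathway lists and the 14 marker lists were chosen with earlier results of these data known. Named genes were the members, *Slc16a7*, the 4 genes of each pathway list with the smallest p, the most abundant gene of each marker list and those at 0 counts, and the 2 genes most correlated with each member. Other genes, namely *Il34*, *Kitl*, *Flt3l*, *Itgam*, *Sftpc*, *Fcer1a*, *Ms4a2*, *Mcpt4*, *Cpa3* and those so described in the text, were named after their values were seen. Counts of replicates of a group differed by far more than sampling noise. At 24863611 to 31713704 counts per library, counting error matters only for *Csf2*, *Csf3* and other genes near 1 CPM.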

Additional observations from a re-analysis of the deposited data

How the results depend on the processing

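The numbers of members and of pathway genes called were 0 in every alternative. Among all genes, the count called was 0 in edgeR's quasi-likelihood test, 83 with DESeq2 on every gene with a count, 79 with DESeq2 on the genes kept, 2 without a filter on low counts, 0 to 2 with 1 library left out (2 without MCT2 KO replicate 2), and 10 without MCT2 CO replicate 3 and MCT2 KO replicate 2 together, a setting chosen after the data were seen. No member changed side of the threshold. *Csf2*, *Csf2ra*, *Csf2rb* and *Csf2rb2* kept the sign of their log2 fold change throughout. With 1 library left out, the log2 fold change ranged from -0.28 to 0.15 for *Csf1*, from -0.10 to 0.30 for *Csf1r*, from -0.12 to 0.47 for *Csf3r* and from -0.13 to 0.27 for *Kit*, so each of these changed sign. Under limma-voom it was -0.04 for *Csf3r* and -0.01 for *Kit*. With the replicate block it was -0.02 for *Csf3r* and no call changed, while the genes at an unadjusted p under 0.05 numbered 1048 against 1264. No pairing by replicate number was seen: deviations of same-numbered libraries from their group means correlated at 0.22, -0.25 and -0.16. With 3 libraries per group these deviations are tied to one another, so they cannot settle whether libraries were paired. The cause of the changes between settings was not tested. Depth limits *Csf2* and *Csf3* alone among the members.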
